A study of Mus musculus with 3 samples.

Results

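The collagen chains of developing mouse digits were read across 3 sorted cell populations. A chain was any gene whose symbol reads Col, a number, a and a number, and Col22a1 was left out. The rule found 42 chains among 23284 listed genes. They were read by class, that is fibrillar, FACIT (fibril-associated with interrupted helices), network-forming and transmembrane, with the beaded-filament type VI, the anchoring-fibril type VII, the multiplexins XV and XVIII and type XXVIII kept apart. RNA-seq was done on 1 library per population, all from C57/bl6 mice that carried 1 GFP reporter allele. The Sox9+ library came from digit cells of Sox9-eGFP/+ embryos at E13.5 (embryonic day), and the labels do not name the limb. The Lgr5+ library held GFP-positive cells, labelled as interzone, from forelimb digits of Lgr5-eGFPCreERT2/+ embryos at E14.5. The Lgr5− library held the GFP-negative cells, labelled as non-interzone, of that genotype, tissue and day. No treatment is named for any group, and the number of embryos pooled is not given in the sources used here. GFP reports activity of the Sox9 or the Lgr5 locus, so a sorted population can mix cell types. Day and reporter differ together between the Sox9+ library and the other 2, the limb may differ as well, and their parts in a difference cannot be told apart. With 1 library per group no difference below has a replicate check, an error or a p-value, and each comparison is between libraries.

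Collagens are secreted or membrane proteins in which 3 chains wind into a helix, and every turn of that helix needs a glycine. In cartilage, type II collagen forms the fibril, type XI sits in its core and sets its diameter, and type IX decorates its surface. Perichondrium, tendon, skin and bone build their fibrils from type I with types III and V. Type IV forms the sheet of basement membranes, type X surrounds hypertrophic chondrocytes, and type VI forms the microfibrils around cells.

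The shared helix was visible in the genes themselves. A run of glycine codons (GGN) opening each group of 3 codons gives coding exons whose length is a multiple of 9 bases, and the fibrillar genes are known for exons of 54 bases. In the GENCODE M21 models on GRCm38, 63.8% of the 1840 inner coding exons of the 42 chains were multiples of 9 bases, against 13.6% of 155124 inner coding exons of all other protein-coding genes. Exons of exactly 54 bases made up 24.0% of the chains' inner coding exons and 0.434% of those of other genes. The classes differed in this. In the 11 fibrillar genes 83.9% of inner coding exons were multiples of 9 and 48.6% had 54 bases, against 23.0% with 54 bases in the 8 FACIT genes, 9.40% in the 4 transmembrane genes and 4.23% in the 9 network genes. Col8a1, Col8a2 and Col10a1, the short-chain network collagens, have 2 coding exons each and therefore no inner one. Exons of 54 bases are printed for chains of each main class to show the repeat. Each is the first of 54 bases in the transcript model used that starts in frame with a glycine codon, read 5′ to 3′ on the coding strand, and capitals mark glycine codons that open a group of 3 codons.
Col1a2, fibrillar, exon 8, chr6:4515481-4515534, plus strand: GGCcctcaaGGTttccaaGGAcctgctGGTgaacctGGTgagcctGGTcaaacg
Col3a1, fibrillar, exon 6, chr1:45325360-45325413, plus strand: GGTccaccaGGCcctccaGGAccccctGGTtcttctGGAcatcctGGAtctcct
Col11a1, fibrillar, exon 15, chr3:114108281-114108334, plus strand: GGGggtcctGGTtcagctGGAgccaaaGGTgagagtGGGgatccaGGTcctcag
Col9a1, FACIT, exon 11, chr1:24202014-24202067, plus strand: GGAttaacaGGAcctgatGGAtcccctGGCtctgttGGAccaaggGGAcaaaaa
Col9a2, FACIT, exon 5, chr4:121043696-121043749, plus strand: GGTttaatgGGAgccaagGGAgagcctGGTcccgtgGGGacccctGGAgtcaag
Col4a1, network, exon 7, chr8:11245211-11245264, minus strand: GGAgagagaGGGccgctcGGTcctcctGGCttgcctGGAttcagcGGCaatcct
Col6a1, beaded filament, exon 9, chr10:76719623-76719676, minus strand: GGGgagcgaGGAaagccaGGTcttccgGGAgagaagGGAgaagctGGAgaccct
Col23a1, transmembrane, exon 13, chr11:51563000-51563053, plus strand: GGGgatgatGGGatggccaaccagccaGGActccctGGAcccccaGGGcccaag
Col7a1, anchoring fibril, exon 38, chr9:108965158-108965211, plus strand: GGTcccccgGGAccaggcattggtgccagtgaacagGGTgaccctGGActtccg
In the first 7 exons a glycine codon opens 6 of 6 groups of 3 codons, and in Col11a1 a further one, left in lower case, stands out of phase. In the Col23a1 exon 5 of the 6 groups open with glycine and in the Col7a1 exon 4, which are breaks in the repeat.

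**Figure D1:**
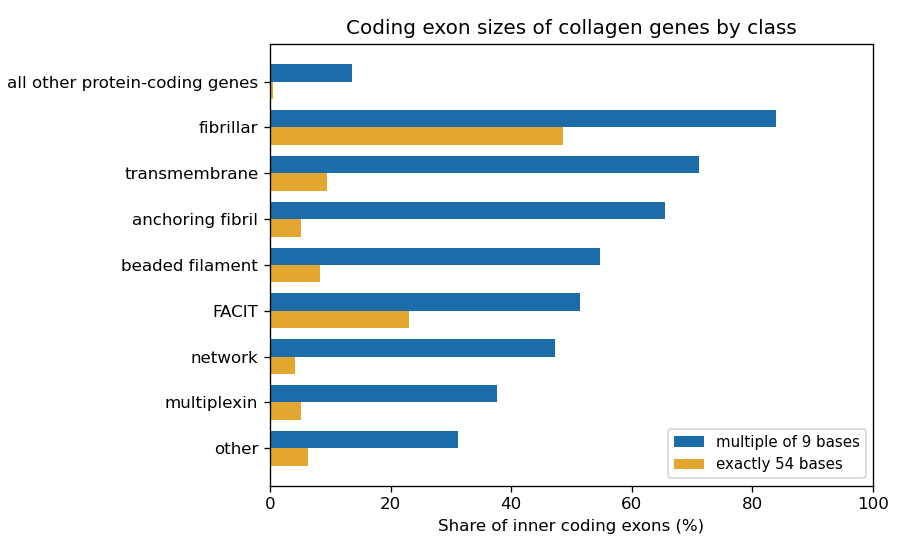
Share of inner coding exons (%, horizontal axis) that are a multiple of 9 bases long or exactly 54 bases long, for the classes of collagen genes and for all other protein-coding genes (GENCODE M21). The fibrillar genes have the highest share in both, at 83.9% and 48.6%, and the other protein-coding genes the lowest, at 13.6% and 0.434%.

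The libraries listed similar numbers of genes, 11924 to 12002, at 1 FPKM (fragments per length of transcript, as a share of all mapped ones) or more, but the ribosomal precursor gene Rn45s took 6.43% of the summed FPKM in Sox9+, 1.86% in Lgr5+ and 6.13% in Lgr5− cells. Lgr5 stood at 3.48 FPKM in Sox9+, 26.8 in Lgr5+ and 1.36 in Lgr5− cells, Sox9 at 255, 332 and 147, and the interzone marker Gdf5 at 59.9, 615 and 71.7. The summed level of 5 cartilage markers was 1546 FPKM in Sox9+ cells, 520.4 in Lgr5+ cells and 343 in Lgr5− cells. Without Sox9, a sum added after the values were seen, the other 4 stood at 1292, 188 and 196 FPKM, and Matn1 among them was 2.23-fold lower in Lgr5+ than in Lgr5− cells, at 41.5 against 93.8 FPKM. Marker sums of other cell types moved as well. The sum of 5 tendon markers was 84.4, 484 and 165 FPKM in the same order, that of 6 perichondrium and bone markers 71.5, 8.54 and 37.6, that of 7 muscle markers 16.6, 97.2 and 24.8, that of 6 macrophage markers 5.11, 55.0 and 30.2, and that of 4 blood markers 46.7, 103 and 3277. In each library 1 of the perichondrium and bone markers was listed at 0. The part of these cells, and of Rn45s, in the differences of the chains was not tested. In bulk libraries fewer cells of a type and less RNA per cell cannot be told apart.

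The share of collagen RNA was largest in Sox9+ cells and smallest in Lgr5− cells. The 42 chains together made up 1.78% of the summed FPKM in Sox9+ cells, 1.23% in Lgr5+ cells and 0.887% in Lgr5− cells. The cartilage fibril chains followed this order, and the type I, III and V chains did not. Col2a1, the Col9 chains and the Col11 chains (6 genes) summed to 8435 FPKM in Sox9+ cells, 3839 in Lgr5+ cells and 2245 in Lgr5− cells. The 5 type I, III and V chains, namely Col1a1, Col1a2, Col3a1, Col5a1 and Col5a2, summed to 1529, 2073 and 2019 FPKM. Cartilage fibril chains were 79.9% of the collagen FPKM in Sox9+ cells, 58.3% in Lgr5+ cells and 46.2% in Lgr5− cells, and type I, III and V chains were 14.49%, 31.5% and 41.6%. The 3 most abundant chains of each library were together Col1a1, Col1a2, Col2a1, Col9a2 and Col9a3. Without these 5 chains the collagen share was 0.449%, 0.348% and 0.289%, in the same order. Col9a1, Col11a1 and Col11a2 stayed in that sum, so it cannot show the order without the cartilage fibril chains. The type I, III and V chains made up 0.258%, 0.388% and 0.369% of the summed FPKM, least in Sox9+ cells.

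**Figure D2:**
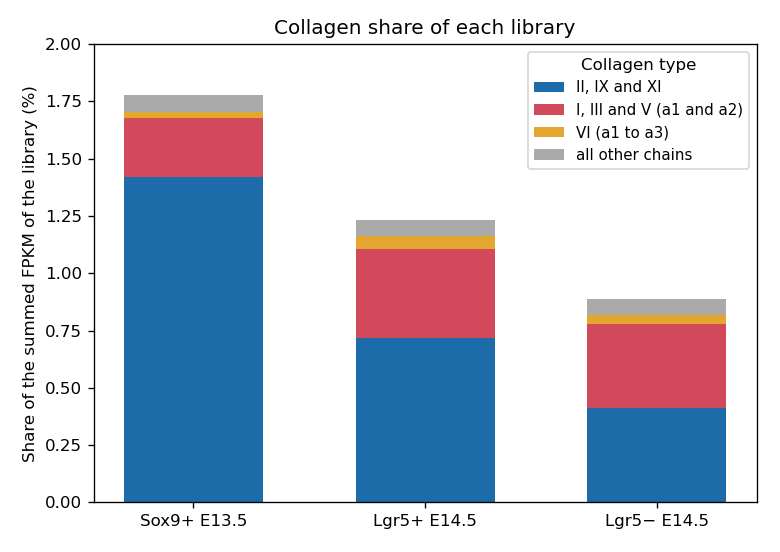
Summed FPKM of the collagen chains as a share of the summed FPKM of each library (%, vertical axis from 0), 1 bar per library, split by collagen type. The whole bar is 1.78% in Sox9+, 1.23% in Lgr5+ and 0.887% in Lgr5− cells, and the part of types II, IX and XI is 1.42%, 0.719% and 0.410%.

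Of the 42 chains, 32 reached 1 FPKM in at least 1 library and 10 did not. The 32 were spread evenly over the libraries, with 11 highest in Sox9+ cells, 10 in Lgr5+ cells and 11 in Lgr5− cells, and 17 of them lay within 2-fold in all 3 pairs of libraries. Folds here are ratios of FPKM + 1, a scale on which low genes differ less than in FPKM, and a gene was counted as measured in a pair if the higher of its 2 values was 1 FPKM or more. Set against Lgr5− cells, Lgr5+ cells had 5 of 32 measured chains at 2-fold or more above and 2 below, where 3.64% of all 12438 measured genes were above and 1.89% below, 5.53% in all. Between the Lgr5+ and Sox9+ libraries 3 were higher and 7 lower in Lgr5+ cells, against 4.33% and 3.96% of 12492 genes, 8.29% in all. Between the Lgr5− and Sox9+ libraries 3 were higher and 9 lower in Lgr5− cells, against 3.08% and 4.94% of 12482 genes, 8.02% in all. The chains were thus past the fold more often than all genes, at 21.9%, 31.2% and 37.5% in these pairs. Among genes with a mean of 10 FPKM or more, which hold 23 chains, the shares were 26.1%, 21.7% and 34.8% of the chains and 4.48%, 6.31% and 6.58% of all genes. The median log2 ratio of the 32 chains stayed near that of all measured genes, at 0.18 against 0.08, 0.01 against 0.06, and −0.01 against −0.01. Any 2 of these pairs share 1 library, so the counts are not independent.

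**Figure D3:**
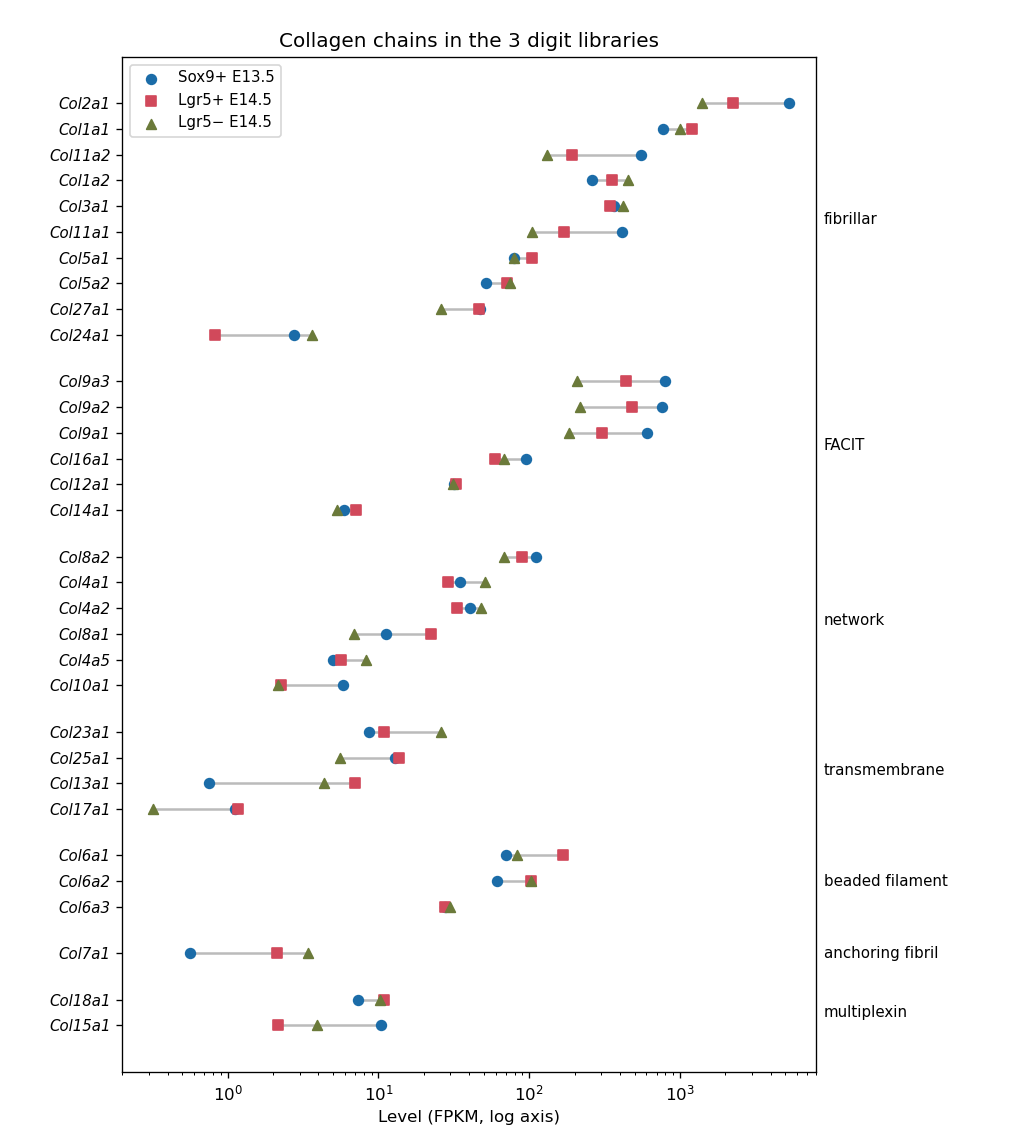
Level of the 32 chains with at least 1 FPKM in some library (FPKM, logarithmic horizontal axis), 1 point per library and chain, ordered by class and by highest level. The 3 Col9 chains, Col2a1 and the 2 Col11 chains run in the order Sox9+, Lgr5+, Lgr5− from high to low, while both type I chains are lowest in Sox9+ cells.

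The cartilage fibril chains held 1 order across the libraries. Col2a1, the type II chain (chr15:97975602-98004695, minus strand), stood at 5304 FPKM in Sox9+, 2253 in Lgr5+ and 1401 in Lgr5− cells. Col11a1 stood at 412, 169.9 and 105 FPKM, and Col11a2 at 553, 193 and 132 FPKM. Of the type IX chains, Col9a1 stood at 608, 302 and 184 FPKM, Col9a2 at 766, 480.0 and 217 FPKM, and Col9a3 at 792, 441 and 206 FPKM. All 6 were highest in Sox9+ cells and lowest in Lgr5− cells. The Sox9+ level exceeded the Lgr5− level by 3.29-fold for Col9a1, the smallest of the 6, to 4.18-fold for Col11a2, the largest. Against Lgr5+ cells the Sox9+ level was 2.86-fold higher for Col11a2, 2.42-fold for Col11a1, 2.35-fold for Col2a1 and 2.01-fold for Col9a1, while Col9a3 (1.80-fold) and Col9a2 (1.59-fold) lay within 2-fold. Between the E14.5 libraries the type IX chains led. Col9a2 was 2.21-fold and Col9a3 2.13-fold higher in Lgr5+ cells, whereas Col9a1 (1.64-fold), Col2a1 (1.61-fold), Col11a1 (1.61-fold) and Col11a2 (1.46-fold) lay within 2-fold. The order of the 6 chains was kept under all 10 other settings of pseudocount, minimum and scaling. The Col9a1 difference between the Lgr5+ and Sox9+ libraries lay within 2-fold under 5 of these settings, at log2 ratios of −0.854 to −0.996. The Col2a1 difference in that pair shrank to a log2 ratio of −0.92 with quantile normalization. The Col9a3 difference between the E14.5 libraries fell below 2-fold under 3 scalings, at 0.98 to 0.99 on the log2 scale.

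The transcription factors known to drive these genes shared their low point in Lgr5− cells but not their high point in Sox9+ cells. Sox9, Sox5 and Sox6, which act together on the cartilage collagen genes, were each highest in Lgr5+ cells. Sox9 gave the values above, Sox5 stood at 21.3, 35.1 and 10.02 FPKM and Sox6 at 30.3, 38.6 and 10.96 FPKM in the Sox9+, Lgr5+ and Lgr5− libraries. Against Lgr5− cells they were 2.25-fold, 3.27-fold and 3.31-fold higher, and none differed by 2-fold between the Lgr5+ and Sox9+ libraries. The cartilage chains were lower in Lgr5+ than in Sox9+ cells, and the 3 factors were higher by 1.26-fold to 1.62-fold. Other pseudocounts and scalings were not applied to the factors, and their part in the chain levels was not tested.

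The chains of interstitial fibrils were at similar levels in the 3 libraries and, for type I, lowest in Sox9+ cells. Col1a1, the main chain of type I (chr11:94936224-94953042, plus strand), stood at 769 FPKM in Sox9+, 1198 in Lgr5+ and 998 in Lgr5− cells. Its partner Col1a2 stood at 261, 357 and 450.5 FPKM. These are differences of at most 1.56-fold for Col1a1 and 1.72-fold for Col1a2. Col3a1, the chain of type III, stood at 368, 342 and 416 FPKM and differed by at most 1.22-fold. The type V chains regulate the start of fibril growth. Col5a1 stood at 79.7, 105 and 79.7 FPKM and Col5a2 at 51.8, 71.0 and 74.4 FPKM, all within 1.5-fold. The ratio of Col2a1 to Col1a1 within a library, which dividing all its values by 1 factor leaves as it is, was 6.90 in Sox9+ cells, 1.88 in Lgr5+ cells and 1.40 in Lgr5− cells.

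The minor fibrillar chains of types XXIV and XXVII parted from both groups. Col27a1, a fibrillar collagen of cartilage, stood at 47.4 FPKM in Sox9+ cells and 46.6 in Lgr5+ cells but 26.1 in Lgr5− cells. It was 1.76-fold higher in Lgr5+ than in Lgr5− cells. Col24a1, linked to forming bone, stood at 2.77, 0.82 and 3.60 FPKM. It was the 1 fibrillar chain lowest in Lgr5+ cells by more than 2-fold, 2.07-fold below Sox9+ and 2.53-fold below Lgr5− cells. The bone factors had the same low point. Runx3 stood at 12.5, 1.81 and 10.9 FPKM, Runx2 at 12.02, 2.10 and 10.7 FPKM and Sp7, which encodes osterix, at 13.0, 0.73 and 5.07 FPKM. Both Col24a1 differences fell within 2-fold with a pseudocount of 5 FPKM. Col5a3 was under 1 FPKM in all libraries.

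**Figure D4:**
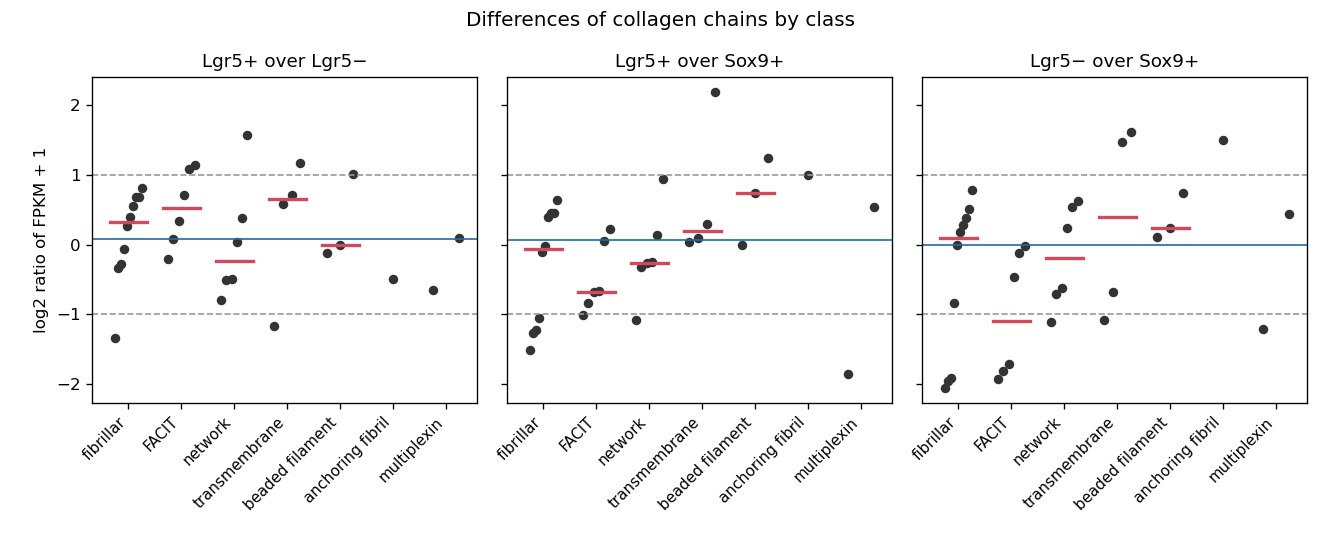
log2 ratio of FPKM + 1 of each measured chain (vertical axis) by class in the 3 pairs of libraries, with the median of classes of 3 or more chains as a short bar, the median of all measured genes as a thin line and 2-fold as dashed lines. The FACIT chains lie at a median of 0.53, −0.68 and −1.09 from left to right, while the fibrillar chains spread to both sides.

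The measured FACIT chains outside type IX lay within 2-fold in each pair. Col12a1, which links fibrils in dense connective tissue, stood at 31.6 FPKM in Sox9+, 32.9 in Lgr5+ and 31.0 in Lgr5− cells. It is the flattest of the 32 measured chains, and the signs of its ratios flipped under some scalings. Col14a1, its close relative, stood at 5.92, 7.05 and 5.34 FPKM. Col16a1 stood at 94.9, 58.9 and 68.2 FPKM and was 1.60-fold lower in Lgr5+ than in Sox9+ cells. All 6 measured FACIT chains were lower in Lgr5− than in Sox9+ cells, by at least 2-fold for the 3 type IX chains only, and the sign of the Col12a1 difference turned under 5 of 10 settings. Col19a1 and Col20a1 were under 1 FPKM in each library.

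The network chains differed by type. Col4a1 and Col4a2, the universal basement membrane pair, were highest in Lgr5− cells. Col4a1 stood at 34.7 FPKM in Sox9+, 29.0 in Lgr5+ and 51.0 in Lgr5− cells, and Col4a2 at 40.3, 33.4 and 47.9 FPKM. Col4a1 was 1.73-fold and Col4a2 1.42-fold lower in Lgr5+ than in Lgr5− cells. Col4a5 stood at 5.01, 5.62 and 8.31 FPKM, while Col4a3, Col4a4 and Col4a6 were under 1 FPKM everywhere. The sum of 6 endothelial markers was also highest in Lgr5− cells, at 10.7 FPKM against 7.06 in Lgr5+ and 4.31 in Sox9+ cells. It was lowest in Sox9+ cells, whereas Col4a1 and Col4a2 were lowest in Lgr5+ cells. All 6 markers were low, none above 2.46 FPKM, and Kdr was highest in Lgr5+ cells, at 1.64 FPKM against 1.28 in Lgr5− cells. The part of endothelial cells in the type IV levels was not tested. Of 11 other basement membrane genes none was 2-fold higher in Lgr5+ than in Lgr5− cells and 1 was lower, the linker gene Nid1, at 12.1 against 26.5 FPKM. Over all measured genes 3.64% were higher and 1.89% lower, and nothing is read from so small a count in 11 genes.

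Type VIII, a short-chain network collagen, showed unequal chains. Col8a1 stood at 11.2 FPKM in Sox9+, 22.3 in Lgr5+ and 6.86 in Lgr5− cells, and was 2.96-fold higher in Lgr5+ than in Lgr5− cells, the largest fold of any chain in that pair. Col8a2 stood at 112, 89.4 and 68.2 FPKM, a 1.31-fold difference in the same pair. The ratio of Col8a1 to Col8a2 was 0.0998 in Sox9+, 0.249 in Lgr5+ and 0.101 in Lgr5− cells. Col10a1, the marker of hypertrophic cartilage (chr10:34389981-34397085, plus strand), was low, at 5.85 FPKM in Sox9+, 2.24 in Lgr5+ and 2.17 in Lgr5− cells. It was 2.11-fold and 2.16-fold lower in Lgr5+ and Lgr5− than in Sox9+ cells, and both differences fell within 2-fold with a pseudocount of 5 FPKM.

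The 4 transmembrane chains, which sit in the cell membrane with the helix outside, were low and went separate ways. Col13a1, a component of cell-matrix contacts and of the neuromuscular junction, stood at 0.75 FPKM in Sox9+, 6.98 in Lgr5+ and 4.35 in Lgr5− cells. It was 4.56-fold higher in Lgr5+ and 3.06-fold higher in Lgr5− than in Sox9+ cells. On this scale the first is the largest fold of any chain in any pair. Its Sox9+ level is below 1 FPKM, so both folds depend on the pseudocount. With a pseudocount of 5 FPKM the first fell to a log2 ratio of 1.06, and the second lay within 2-fold, at 0.70. The Col11a2 log2 ratio of Lgr5− to Sox9+ cells stayed between −2.07 and −1.87 under all 10 other settings. Col23a1 stood at 8.71, 10.96 and 25.9 FPKM, so it was 2.77-fold higher in Lgr5− than in Sox9+ cells and 2.25-fold lower in Lgr5+ than in Lgr5− cells. Col25a1, which developing muscle needs for motor innervation, ran the other way, at 12.8, 13.8 and 5.56 FPKM. It was 2.25-fold higher in Lgr5+ than in Lgr5− cells and 2.11-fold lower in Lgr5− than in Sox9+ cells. With a pseudocount of 5 FPKM the Lgr5+ to Lgr5− log2 ratios became −0.95 for Col23a1 and 0.83 for Col25a1, and the Lgr5− to Sox9+ log2 ratio of Col25a1 became −0.76. The last also lay within 2-fold under 2 scalings, at −0.98 and −0.97. The 7 muscle markers were each at least 2-fold higher in Lgr5+ than in Lgr5− cells, and their sum was 16.6 FPKM in Sox9+, 97.2 in Lgr5+ and 24.8 in Lgr5− cells. Col17a1, the hemidesmosome collagen of basal epidermis, stood at 1.12, 1.17 and 0.32 FPKM. The sum of 6 epidermal markers was 19.0, 40.6 and 12.6 FPKM, also lowest in Lgr5− cells. Epcam among them went the other way, at 6.25, 3.90 and 8.76 FPKM, highest in Lgr5− cells. The part of muscle and epidermal cells in these levels was not tested.

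Type VI chains were not at equal levels. Col6a1 stood at 70.0 FPKM in Sox9+, 167 in Lgr5+ and 82.6 in Lgr5− cells, 2.37-fold higher in Lgr5+ than in Sox9+ cells and 2.01-fold higher than in Lgr5− cells. Col6a2 stood at 61.2, 102.8 and 103 FPKM, nearly equal in the E14.5 libraries, and Col6a3 stood at 27.7, 27.5 and 30.0 FPKM. The Col6a1 difference between the E14.5 libraries lay at the threshold and fell below 2-fold under 5 of 10 other settings. Col6a4, Col6a5 and Col6a6, which can take the place of Col6a3, were under 1 FPKM everywhere. Col7a1, the anchoring-fibril chain of skin, stood at 0.56, 2.12 and 3.40 FPKM. It was exactly at 2-fold between the Lgr5+ and Sox9+ libraries and 2.82-fold higher in Lgr5− than in Sox9+ cells. With a pseudocount of 5 FPKM these log2 ratios became 0.36 and 0.60. Of the multiplexins, which border basement membranes, Col15a1 stood at 10.4, 2.15 and 3.93 FPKM, 3.62-fold and 2.31-fold lower in Lgr5+ and Lgr5− than in Sox9+ cells. The second lay within 2-fold with a pseudocount of 5 FPKM, at a log2 ratio of −0.79. Col18a1, whose C-terminal fragment is endostatin, stood at 7.26, 10.9 and 10.2 FPKM. Col28a1 was under 1 FPKM in each library.

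Chains that assemble into one molecule were compared within each library. FPKM are scaled by transcript length. The annotation behind them is not given in the sources used here, and coverage along the transcripts is unknown. Ratios between different chains are therefore approximate. A type I molecule holds 2 chains of Col1a1 for each Col1a2 chain, and the measured ratio of Col1a1 to Col1a2 was 2.95 in Sox9+, 3.36 in Lgr5+ and 2.22 in Lgr5− cells. A type IX molecule holds 1 of each chain. The ratio of Col9a3 to Col9a2 was 1.03, 0.918 and 0.952, and that of Col9a1 to Col9a2 was 0.794, 0.630 and 0.849. Col11a1 to Col11a2 stood at 0.745, 0.882 and 0.798. The flattest ratio across libraries among the 20 computed was that of Col2a1 to Col11a1, at 12.9, 13.3 and 13.3, a range of 1.04-fold over levels that differed 3.78-fold and 3.90-fold. Col2a1 to Col9a1 was 8.72, 7.45 and 7.61. Col4a1 to Col4a2 was 0.86, 0.869 and 1.06, and Col5a1 to Col5a2 was 1.54, 1.48 and 1.07. Among chains of 1 collagen type the widest ranges were 2.50-fold, for Col8a1 to Col8a2, and 2.41-fold, for Col6a1 to Col6a3, which stood at 2.52, 6.08 and 2.76. These levels are of RNA of all isoforms of a gene together, and no spread between replicates is known for any ratio. Chain numbers of a molecule are given for types I and IX only, and whether RNA ratios follow chain numbers was not tested.

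**Figure D5:**
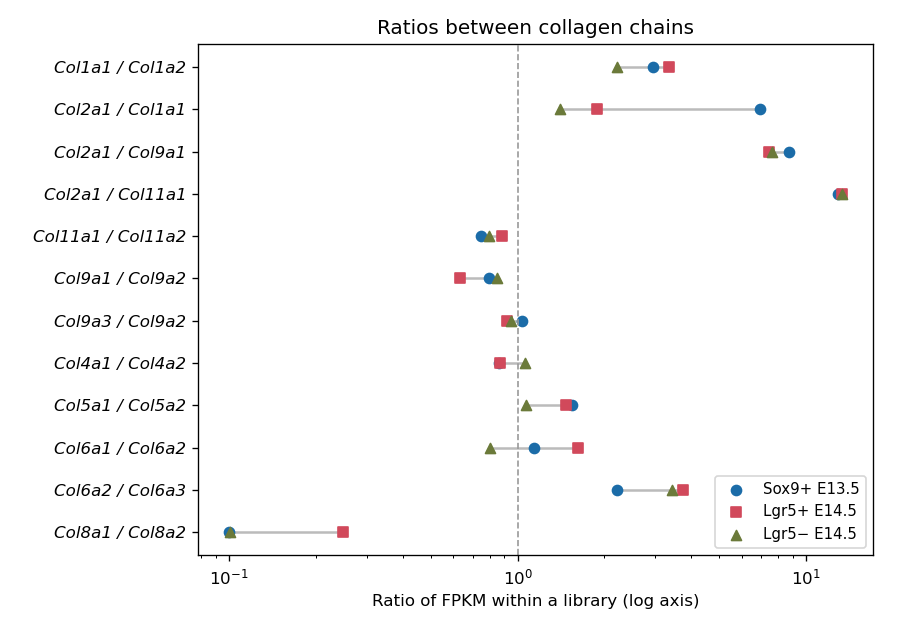
Ratio of FPKM between 12 pairs of collagen chains within each library (logarithmic horizontal axis), 1 point per library, with equal levels as a dashed line. The Col2a1 to Col11a1 ratios lie between 12.9 and 13.3, while the Col2a1 to Col1a1 ratios run from 1.40 in Lgr5− cells to 6.90 in Sox9+ cells.

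Several chains are neighbours in the genome, some at like and some at unlike levels. Col4a1 and Col4a2 (chromosome 8) lie head to head and overlap by 22 bases at their starts, and their levels were alike in each library. Whether counting used the strand is not given in the sources used here, so reads in the shared bases could count for either gene. Col4a3 and Col4a4 (chromosome 1) lie head to head 71 bases apart, and both were at or under 0.08 FPKM in the 3 libraries. Col4a5 and Col4a6 (chromosome X) lie head to head 1308 bases apart, yet the ratio of Col4a5 to Col4a6 was 13.2, 13.1 and 14.1 in the Sox9+, Lgr5+ and Lgr5− libraries. Col9a1 and Col19a1 (chromosome 1) lie tail to tail 9205 bases apart, with Col9a1 at 184 to 608 FPKM and Col19a1 at 0.06 to 0.32 FPKM. Col3a1 and Col5a2 (chromosome 1) lie tail to tail 24614 bases apart with no protein-coding gene between, and stood at 342 to 416 FPKM and 51.8 to 74.4 FPKM.

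The promoters were read for 35 of the 42 chains, in 38 RefSeq windows (GRCm38.p6) from 250 bases before to 50 bases after a start. Col1a1, Col2a1, Col4a3, Col5a2, Col9a3, Col12a1 and Col14a1 were not matched. The windows were searched on both strands for 5 sets of letters. The TATA box was read as TATAAA and the GC box as GGGCGG. The CCAAT box was read by the letters of its name. The core of the site bound by SOX proteins was read as ACAATG, with ACAAAG as its other form. That of RUNX proteins was read as ACCACA. Matches of different motifs were counted separately, also where they overlapped, and a match is a description and not a binding site. GC boxes were in 60.5% of the chains' windows and 35.7% of all 32851 windows. TATA letters were in 13.2% and 13.6%, in the windows of Col3a1, Col10a1, Col11a2, Col13a1 and Col17a1, and CCAAT was in 34.2% and 37.4%. A SOX core was in 13.2% of the chains' windows and 28.6% of all windows. For a RUNX core the shares were 7.89% and 16.8%. The 5 windows of Col9a1, Col9a2, Col11a1 and Col11a2 held no SOX core and no RUNX core, and nothing is read from so few windows. In Col10a1 the TATA letters began 32 bases before the start. The median GC content was 59.8% in the chains' windows and 52.7% in all. The 250 bases before the start are printed for 4 chains, with the letters searched for in capitals. Col9a2, Col11a1 and Col11a2 shared the order Sox9+, Lgr5+, Lgr5− from high to low, though not the size of the differences. Col1a2 had another order.
Col9a2, chr4:121039316-121039565, plus strand: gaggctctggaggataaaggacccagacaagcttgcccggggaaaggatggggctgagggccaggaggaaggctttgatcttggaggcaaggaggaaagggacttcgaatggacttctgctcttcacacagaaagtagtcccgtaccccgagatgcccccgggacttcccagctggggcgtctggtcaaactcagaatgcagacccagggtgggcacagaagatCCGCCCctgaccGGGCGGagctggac
Col11a1, chr3:114030290-114030539, plus strand: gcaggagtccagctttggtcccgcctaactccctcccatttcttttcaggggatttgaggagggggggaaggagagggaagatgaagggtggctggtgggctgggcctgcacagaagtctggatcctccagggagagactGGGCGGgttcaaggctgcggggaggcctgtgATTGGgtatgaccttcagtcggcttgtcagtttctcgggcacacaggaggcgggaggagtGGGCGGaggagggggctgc
Col11a2, chr17:34038888-34039137, plus strand: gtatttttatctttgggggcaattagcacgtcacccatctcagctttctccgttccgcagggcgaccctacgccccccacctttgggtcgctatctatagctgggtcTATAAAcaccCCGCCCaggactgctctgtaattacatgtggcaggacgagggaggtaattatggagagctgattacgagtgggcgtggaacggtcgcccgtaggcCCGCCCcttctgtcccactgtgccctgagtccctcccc
Col1a2, chr6:4505368-4505617, plus strand: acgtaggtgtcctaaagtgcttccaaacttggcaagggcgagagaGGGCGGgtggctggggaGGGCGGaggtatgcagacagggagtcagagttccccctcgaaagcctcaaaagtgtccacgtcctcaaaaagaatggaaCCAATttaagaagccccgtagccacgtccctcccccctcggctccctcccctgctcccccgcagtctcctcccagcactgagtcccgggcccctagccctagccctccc
The Col9a2 stretch holds GC boxes 26 and 14 bases before the start, that of Col11a1 GC boxes at 110 and 19 and a CCAAT at 79, that of Col11a2 a TATA at 143 and GC boxes at 133 and 38, and that of Col1a2 GC boxes at 205 and 188 and a CCAAT at 109.

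Genes that build and read collagen were followed in lists fixed beside the chains. Of 31 measured genes for folding, export, propeptide removal and crosslinking, 5 were higher in Lgr5+ than in Lgr5− cells by 2-fold or more and none was lower by that much, with 3.64% of all measured genes higher and 1.89% lower. The largest was Plod2, the lysyl hydroxylase of telopeptides, at 132 against 35.5 FPKM, 3.66-fold. Adamts14, an N-propeptidase, was 2.65-fold, P4ha2, a prolyl hydroxylase subunit, 2.40-fold, and the crosslinking gene Loxl3 2.21-fold higher. From Sox9+ to Lgr5+ cells 1 of 32 was higher and 4 were lower, with 4.33% and 3.96% of all genes. Here Pcolce2, an enhancer of propeptide removal, was 3.60-fold, the collagen galactosyltransferase gene Glt25d2 3.03-fold and the crosslinking gene Loxl4 2.42-fold lower, and Adamts2, which removes the N-propeptide of type I, was 2.29-fold higher. From Sox9+ to Lgr5− cells 3 of 32 were higher and 8 lower, with 3.08% and 4.94% of all genes. The largest folds were those of Glt25d2 (4.17-fold lower), Plod2 (3.69-fold lower), the prolyl hydroxylase gene Leprel1 (3.06-fold lower) and P4ha2 (3.04-fold lower). The 3 higher genes were Adamts2 (2.99-fold) and the lysyl oxidase genes Loxl1 (2.25-fold) and Lox (2.20-fold). Of the collagen receptors, the integrin gene Itga11 stood at 17.5 FPKM in Sox9+, 81.9 in Lgr5+ and 16.0 in Lgr5− cells, and the receptor kinase gene Ddr1 at 7.41, 25.0 and 8.71 FPKM. These are 4.86-fold and 2.68-fold higher in Lgr5+ than in Lgr5− cells, while Ddr2, at 13.7, 8.55 and 15.1 FPKM, was within 2-fold. In that pair 2 of 4 measured receptor genes were higher and none lower, with 3.64% and 1.89% of all genes. From Sox9+ to Lgr5+ cells 2 of 6 were higher and 1 lower, with 4.33% and 3.96% of all genes. The lower one was Itga10, at 1.81, 0.27 and 0.85 FPKM, 2.21-fold lower in Lgr5+ than in Sox9+ cells. Nothing is read from so few receptor genes. The 4 tendon regulators listed did not share 1 order. Scx, the tendon factor that acts on type I collagen genes, stood at 42.5, 194.5 and 80.6 FPKM, highest in Lgr5+ cells, as Col1a1 was, while Col1a2 was highest in Lgr5− cells. Mkx stood at 8.59, 32.6 and 29.1 FPKM, and was 3.13-fold higher in Lgr5− than in Sox9+ cells. Egr1 was highest in Sox9+ cells, at 1221, 603 and 669.5 FPKM, and Egr2 lowest in Lgr5+ cells, at 41.4, 29.6 and 43.8 FPKM.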

How the data were processed

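RNA-seq was made from 10 ng of total RNA per library with a SMARTer ultra-low-input kit, per the labels' protocols, in 3 libraries and 1 per group. The submitters' processing notes name HISAT2 and mm10 (GRCm38). What made the FPKM, on which annotation and with which rule for multi-mapping reads, is not given in the sources used here. Deposited by the authors was 1 FPKM value per gene symbol, rounded to 2 decimals. FPKM is a share of a library scaled by transcript length, so abundant RNAs shift all others and isoforms are merged. The depth is unknown, so values carry no counting interval. Looking for the step left by 1 fragment gave scores of 0.198 to 0.240, where whole fragments without rounding would give 1. Rounding to 2 decimals lowers the score at high depth, so a low score cannot show that no step exists. Ratios were log2 of FPKM + 1 (pseudocount 1 FPKM, minimum 1 FPKM in the higher library, 2-fold), computed with Python 3.11.15, numpy 2.4.6 and pandas 2.3.3. The computation was run on simulated data with 4-fold changes and little noise. That checks the arithmetic and cannot show how sure a call near 2-fold or in a low gene is. The members, lists and rules were chosen with earlier results of these data known. Every chain is accounted for, those at 1 FPKM or more with values. Other lists are named by their largest folds at 2-fold or more, with up to 4 genes per list and pair. This was done only in the pairs described for a list, so genes past 2-fold in other pairs can go unnamed. Ddr2, Sox5, Matn1, Adamts2, Lox, Loxl1, Egr1, Egr2, Epcam and Kdr were named beside these after their values were seen. Exon models came from GENCODE M21 and promoter windows from RefSeq. Pseudocounts, minimums, folds and 6 scalings were varied.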

Additional observations from a re-analysis of the deposited data

How the results depend on the processing

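No called chain changed direction under the 10 other pseudocounts, minimums and scalings. Under every one in which they were measured, 2 of 7, 5 of 10 and 7 of 12 called chains kept 2-fold (Lgr5+ over Lgr5−, Lgr5+ over Sox9+, Lgr5− over Sox9+). Col13a1 is among the 5 of the second pair, but at a minimum of 10 FPKM it was not measured there. The numbers past the fold, of 32 measured chains, became 3, 6 and 7 with a pseudocount of 5 FPKM, against 2.28%, 3.09% and 3.30% of all measured genes. At 1.5-fold they were 14, 16 and 19, against 15.4%, 22.5% and 22.3% of all genes. At 3-fold they were 0, 2 and 7, against 1.85%, 2.63% and 2.52%. At a minimum of 10 FPKM the second was 6 of 25 chains, against 7.73% of all genes. The split of higher and lower chains in the second pair, 3 and 7, became 4 and 4 with the sum without the collagen chains and 4 and 6 after rescaling to TPM. Of all genes 718 were higher and 399 lower of 12492 in the first case, and 981 and 533 of 13406 with TPM. That of the first pair, 5 and 2, became 3 and 2 under 3 scalings (upper quartile, quantile, total less the 50 top genes), with 5.38% to 5.45% of all genes past 2-fold.

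Medians lay close to 0 and changed sign or size easily. For Lgr5+ over Lgr5− the median was −0.0077 without a minimum, 0.32 at 10 FPKM and 0.068 with upper quartile. For Lgr5+ over Sox9+ it was −0.026 without a minimum, −0.024 at 10 FPKM, 0.14 with TPM, 0.12 without the collagen sum, −0.044 with median of ratios, −0.055 with upper quartile, −0.021 with quantile normalization and −0.087 as a mean. For Lgr5− over Sox9+ it was 0.020 without a minimum, 0.17 with TPM, 0.089 without the collagen sum, 0.11 without the 50 most abundant genes, 0.020 with upper quartile, 0.089 with quantile normalization and −0.27 as a mean. All genes shifted too, with medians of 0.21 and 0.11 in the last 2 pairs after TPM against 0.06 and −0.01, and the cause was not tested. Without the 3 most abundant chains of each library the share of collagen was 0.449%, 0.348% and 0.289%, lower by construction. The ratio of Col4a5 to Col4a6 became 4.36, 4.63 and 5.86 with a pseudocount of 1 FPKM, since Col4a6 is low. No paired analysis was possible because each group has 1 library. No library could be left out for the same reason, and the unknown depth limits what can be said of chains near 1 FPKM.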
